A study of Mus musculus with 7 samples.

Results

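The dual-specificity phosphatases that act on MAP kinases were examined in mouse hematopoietic stem and progenitor cells with 1 or both Ddx41 alleles. Their members were taken by symbol: Dusp1, Dusp2, Dusp4, Dusp5, Dusp6, Dusp7, Dusp8, Dusp10 and Dusp16, 9 of the 24421 gene symbols in the deposited counts table. All 9 had a row. RNA sequencing had been done on bulk LSK cells (lineage-negative, Sca1+, Kit+), the marrow fraction that holds the stem cells and the earliest progenitors. There were 4 Ddx41+/+ samples (replicates 1, 2, 3 and 4) and 3 Ddx41+/- samples (replicates 6, 7 and 8), each from 1 recipient mouse, and the question was how loss of 1 Ddx41 allele alters gene expression in these cells.

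Every donor carried RosaCreERT2, a tamoxifen-activated Cre recombinase that is expressed in nearly all tissues. Donors of the Ddx41+/- group also carried 1 floxed Ddx41 allele. Marrow of either genotype went into lethally irradiated BoyJ hosts, all hosts received 1 mg of tamoxifen daily in 2 rounds of 5 days right after the transplant, and about 20K LSK cells per mouse were taken at 8 weeks. The Ddx41+/+ group therefore shares the Cre, the tamoxifen, the irradiation and the transplant. No donor marker is named in the sort, so surviving host LSK cells, which are Ddx41+/+, may be included. The ages of the mice and the number of donors are not given in the sources used here. The p-values therefore measure the spread between recipient mice only.

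MAP kinases (ERK, JNK and p38) are switched on when a threonine and a tyrosine in their activation loop are phosphorylated. The dual-specificity phosphatases remove both phosphates and so switch the kinase off. Many of them are themselves transcribed in response to MAP kinase activity, which makes their transcripts a feedback arm of the pathway, and ERK signalling downstream of cytokine receptors is known to act on the proliferation of hematopoietic progenitors. The members fall into 3 classes: the inducible nuclear enzymes (Dusp1, Dusp2, Dusp4, Dusp5), the cytoplasmic enzymes that prefer ERK (Dusp6, Dusp7), and the enzymes that prefer JNK and p38 (Dusp8, Dusp10, Dusp16).

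The libraries held 32234499 to 43751290 counts, with no difference in depth found between genotypes (exact two-sided permutation p = 0.457 over 35 splits, where 0.0286 is the smallest possible). In Ddx41+/+ cells Ddx41 itself averaged 97.9 counts per 1000000 (CPM) ± 6.43 (SD, n = 4), against 67.3 ± 2.63 (SD, n = 3) in Ddx41+/-. The difference passed the test across all genes (log2 fold change -0.54, SE 0.07, edgeR adjusted p = 0.0052), so the genotype labels matched the libraries. Of the LSK markers, Kit (427 to 505 CPM) and Cd34 (647 to 830.0 CPM) were abundant, whereas Ly6a, the gene of Sca1, was low at 13.3 to 30.5 CPM. Of the 7 LSK markers, 1 had a higher mean in Ddx41+/-, beside 48.8% of all genes tested. None passed the adjusted test. Cd34, Flt3 and Slamf1 were lower at an unadjusted edgeR p under 0.05, 3 of 7 beside 10.6% of all genes tested in either direction. Their part in the Dusp values was not tested. The T cell genes Cd3d, Cd3e and Cd3g reached at most 0.39 CPM, and the 4 adult globin genes Hba-a1, Hba-a2, Hbb-bs and Hbb-bt had no counts in any sample. The neutrophil list separated the genotypes. The summed level of its 10 genes with a row was 741 to 1255 CPM in Ddx41+/+ samples. In Ddx41+/- samples it was 1335 to 2283 CPM, without overlap. Of the 10 genes, 9 had a higher mean in Ddx41+/-, beside 48.8% of all genes tested. Taken singly, 7 were higher without overlap, beside 10.1% of all genes tested without overlap in either direction. The summed B-lineage genes spanned 82.6 to 179 CPM and 85.2 to 411 CPM, the highest being Ddx41+/- replicate 7.

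Among the 9 phosphatases, no difference between genotypes passed an adjusted p of 0.05 with edgeR's quasi-likelihood test. Across all 13340 genes tested, 29 did (0.217%). DESeq2, which gave no adjusted p for Dusp8, and limma-voom also called none, whereas limma-voom with sample quality weights and the edgeR fit without Ddx41+/+ replicate 4 each called Dusp1. At an unadjusted p under 0.05, Dusp1 and Dusp8 were higher and Dusp2 was lower in Ddx41+/- cells, 3 of 9 beside 10.6% of all genes tested. The samples of the genotypes did not overlap for Dusp8 and Dusp2, 2 of 9 beside 10.1% of all genes tested. Dusp8 passed the expression filter through the Ddx41+/- samples alone, so a difference was built into its passing. It is included in both counts but is no evidence in either. Setting it aside leaves Dusp1 and Dusp2 at the unadjusted threshold, and Dusp2 alone without overlap. The median log2 fold change of the members was -0.02, beside -0.0048 for all genes tested, with 4 members above 0 and 5 below it. That median was 0.019 without Ddx41+/+ replicate 3 and 0.012 without Ddx41+/- replicate 8.

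**Figure D1:**
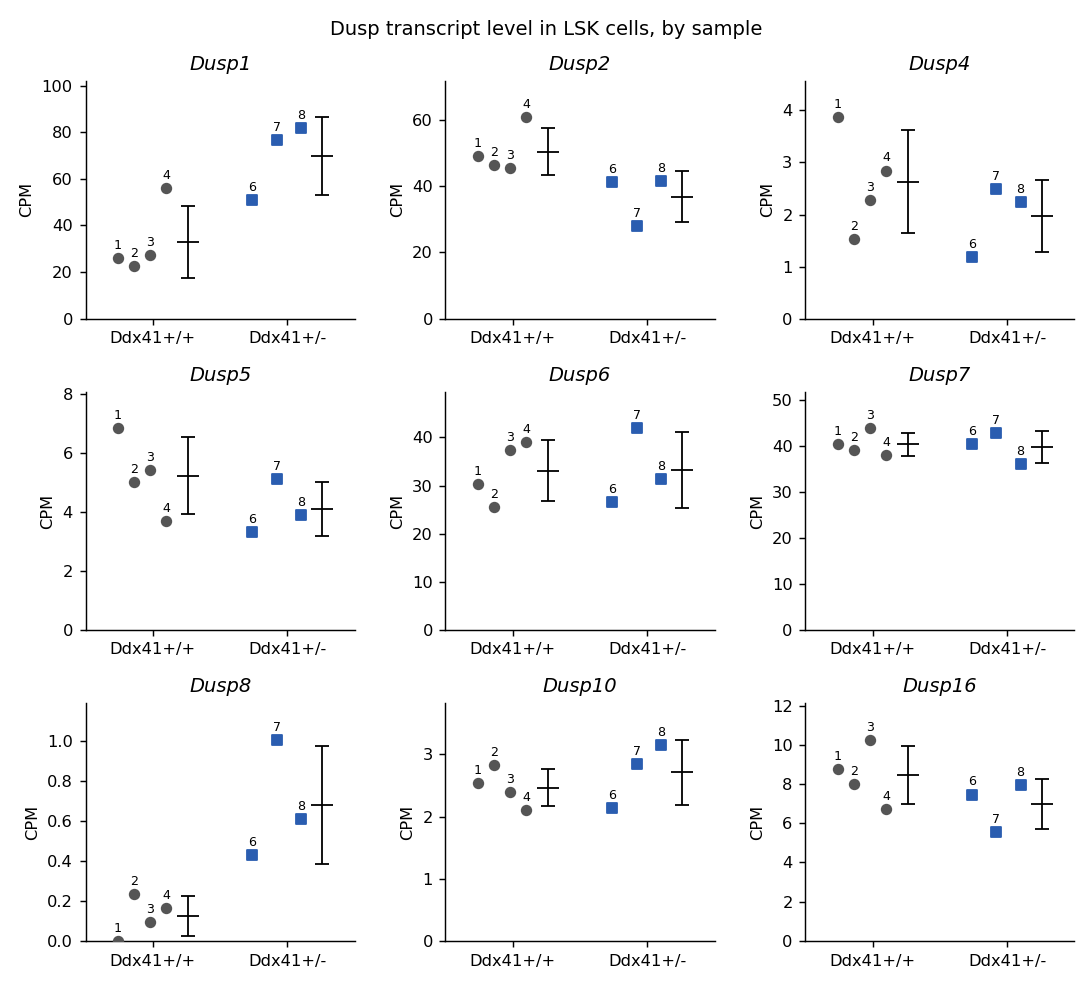
Level of each Dusp transcript in CPM, by sample; grey circles are Ddx41+/+ replicates 1 to 4, blue squares are Ddx41+/- replicates 6 to 8, and bars beside them give the mean and SD. For Dusp1 the Ddx41+/+ replicate 4 (56.1 CPM) lies above the Ddx41+/- replicate 6 (50.8 CPM), whereas for Dusp2 and Dusp8 the genotypes do not overlap.

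The promoters of the inducible members are known targets of the transcription factors that MAP kinases activate. RefSeq promoter windows (build GRCm38.p6) were matched to 8 of the 9 members, all but Dusp4. They were searched on both strands, over 250 bases upstream of the start site, for the cAMP response element (CRE, TGACGTCA), the AP-1 site bound by Fos and Jun dimers (TGACTCA) and the serum response element core (CArG box). Of 32851 windows, 1.55% held the CRE, 4.46% the AP-1 site and 1.47% the CArG box, and none of these letter strings overlaps another in the matches below. Dusp1, Dusp8 and Dusp5 are shown because they were the members with a match, and Dusp2 because its fold change had the opposite sign to that of Dusp1. The first 200 bases of each window are printed 5′ to 3′ on the gene's strand, with matches in capitals. Dusp1 (chr17:26508523-26508722, minus strand) and Dusp8 (chr7:142095335-142095534, minus strand) each lie upstream of the RefSeq start and within an intron of a longer annotated transcript of the same gene. Dusp5 (chr19:53528895-53529094, plus strand) is exonic in an antisense noncoding gene, AC137853.2. Dusp2 (chr2:127335909-127336108, plus strand) holds no annotated transcript.
Dusp1: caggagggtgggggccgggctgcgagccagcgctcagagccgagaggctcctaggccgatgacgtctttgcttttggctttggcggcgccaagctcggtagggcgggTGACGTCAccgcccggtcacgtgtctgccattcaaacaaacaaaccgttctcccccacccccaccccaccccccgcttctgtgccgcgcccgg
Dusp8: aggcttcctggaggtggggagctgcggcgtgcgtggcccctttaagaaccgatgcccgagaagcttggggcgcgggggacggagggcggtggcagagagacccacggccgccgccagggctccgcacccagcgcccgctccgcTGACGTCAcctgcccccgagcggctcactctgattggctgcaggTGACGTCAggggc
Dusp5: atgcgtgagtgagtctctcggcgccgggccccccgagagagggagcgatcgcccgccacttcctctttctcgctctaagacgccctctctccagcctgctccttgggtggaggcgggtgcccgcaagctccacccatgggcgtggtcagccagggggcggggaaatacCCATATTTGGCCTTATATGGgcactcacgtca
Dusp2: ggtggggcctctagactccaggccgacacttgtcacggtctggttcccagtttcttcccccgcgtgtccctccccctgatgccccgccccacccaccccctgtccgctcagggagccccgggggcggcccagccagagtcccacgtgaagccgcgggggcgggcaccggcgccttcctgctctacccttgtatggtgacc
Dusp1 held 1 CRE, ending 135 bases before the start site. Dusp8 held 2, at 99 and 55 bases. Dusp5 held 2 adjoining CArG boxes, at 72 and 62 bases. No AP-1 match was present in any of the 8 windows. A match is a description of the sequence, and binding was not measured.

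Dusp1 (also called MKP-1) is an immediate-early nuclear phosphatase that acts mainly on p38 and JNK, and the study marked this gene on its heatmap of these same LSK samples, so its direction is not independent evidence. Across Ddx41+/+ replicates 1 to 4 its level was 25.9, 22.6, 27.3 and 56.1 CPM, against 50.8, 76.5 and 82.04 CPM across Ddx41+/- replicates 6 to 8. Thus 3 Ddx41+/+ samples lay close together, and replicate 4 lay among the Ddx41+/- samples, above the lowest of them. The means were 32.99 CPM ± 15.5 (SD, n = 4) and 69.8 CPM ± 16.7 (SD, n = 3), a ratio of 2.12. The log2 fold change was 1.08 (SE 0.39, 95% interval 0.11 to 2.05, unadjusted p = 0.0346, edgeR adjusted p = 0.423), and 2.00% of all genes tested had a change of at least this size in either direction. Without Ddx41+/+ replicate 4 it was 1.47 with an adjusted p of 0.0158, and with limma-voom quality weights, which downweight discordant libraries, it was 1.22 with an adjusted p of 0.0478. Across the other 11 alternatives the direction held. The adjusted p ranged from 0.0767 with limma-voom to 0.755 in the edgeR fit without Ddx41+/- replicate 7, and was 0.185 with DESeq2. The unadjusted p of Dusp1 was under 0.05 in 8 of all 13 alternatives, and reached 0.102 in the edgeR fits with 1 sample left out. In bulk samples, fewer cells expressing a gene and less RNA per cell cannot be told apart, and this applies to every member. Dusp1 shares 11 exonic bases with Ergic1 on the opposite strand. The neutrophil genes given above were higher in the same genotype. Their sum was 741, 918, 1255 and 1079 CPM in Ddx41+/+ replicates 1 to 4. In Ddx41+/- replicates 6 to 8 it was 2283, 1589 and 1335 CPM. The part of the neutrophil genes in the Dusp1 values was not tested.

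Dusp2 (PAC-1), a nuclear phosphatase best known from activated lymphocytes and active toward ERK and p38, ran opposite to Dusp1. The Ddx41+/+ replicates 1 to 4 had 49.1, 46.4, 45.4 and 60.7 CPM of it, and the Ddx41+/- replicates 6 to 8 had 41.1, 27.9 and 41.6 CPM. All Ddx41+/- samples lay below all Ddx41+/+ samples. The means were 50.4 CPM ± 7.07 (SD, n = 4) and 36.8 CPM ± 7.78 (SD, n = 3), so that Ddx41+/- cells held 73.1% of the Ddx41+/+ level. The log2 fold change was -0.45 (SE 0.14, 95% interval -0.76 to -0.14, unadjusted p = 0.00862, edgeR adjusted p = 0.300). It was negative in all 13 alternatives, from -0.55 to -0.29, and the unadjusted p stayed under 0.05 in each. The smallest adjusted p was 0.0674, with DESeq2, and the largest was 0.588, without Ddx41+/- replicate 7, where the log2 fold change was -0.29. That replicate had the lowest Dusp2 and the highest summed B-lineage genes of the 7 samples. Whether those values are connected was not tested.

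Dusp4 and Dusp5, nuclear phosphatases of the same inducible class of which Dusp5 is specific for ERK, were expressed at much lower levels. Dusp4 was at 3.87, 1.53, 2.27 and 2.85 CPM in Ddx41+/+ and 1.19, 2.49 and 2.23 CPM in Ddx41+/- cells. Dusp5 was at 6.82, 4.995, 5.40 and 3.67 CPM in Ddx41+/+ and 3.30, 5.10 and 3.90 CPM in Ddx41+/- cells. The genotypes overlapped for both genes, and the sample with the highest level of either was Ddx41+/+ replicate 1. Dusp4 had a log2 fold change of -0.42 (SE 0.35, 95% interval -1.17 to 0.33, adjusted p = 0.723). That of Dusp5 was -0.35 (SE 0.24, 95% interval -0.86 to 0.15, adjusted p = 0.645). Of the exonic bases of Dusp5, 547 of 2473 are shared with the antisense gene AC137853.2, and whether counting used the strand is not given in the sources used here. Without Ddx41+/- replicate 6 the Dusp4 value was -0.16 and without Ddx41+/- replicate 7 it was -0.62. The Dusp5 value was -0.20 without Ddx41+/+ replicate 1 and -0.54 without Ddx41+/- replicate 7. Of the inducible class, then, 1 member had a higher mean in Ddx41+/- and 3 had a lower one. Ddx41+/+ replicate 4, which had the highest Dusp1 and Dusp2 of its group, had the lowest Dusp5.

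**Figure D2:**
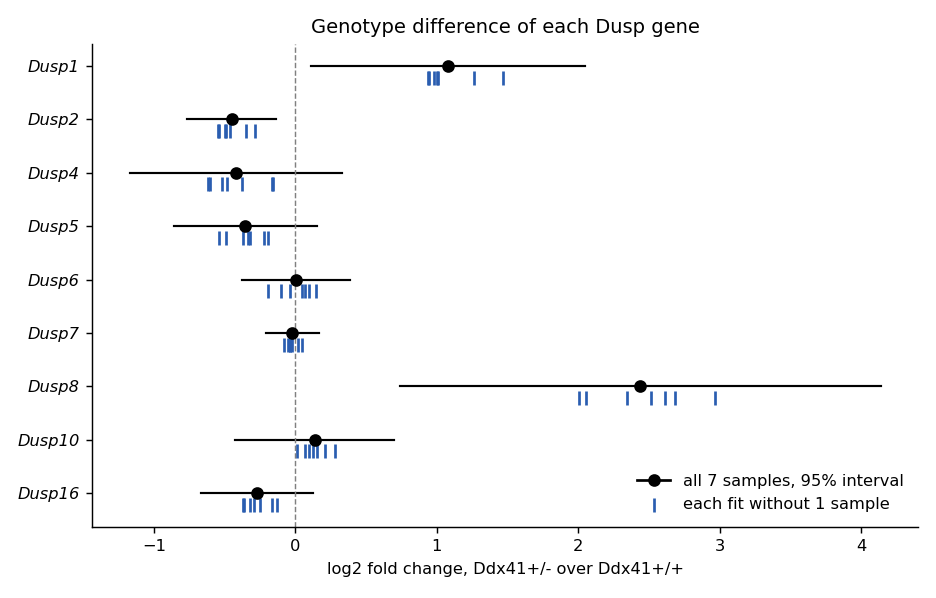
Log2 fold change of each Dusp gene, Ddx41+/- over Ddx41+/+; circles and lines are the estimate from all 7 samples with its 95% interval, and blue ticks the estimates with 1 sample left out in turn. The Dusp1 ticks run from 0.94 to 1.47, those of Dusp2 stay between -0.55 and -0.29, and those of Dusp6 and Dusp7 lie on both sides of 0.

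Dusp6 (MKP-3), the cytoplasmic phosphatase that dephosphorylates ERK and is widely used as a transcript readout of ERK activity, showed no detectable difference. In the Ddx41+/+ samples, in order of replicate, it was at 30.4, 25.6, 37.4 and 39.1 CPM, against 26.6, 41.9 and 31.3 CPM in the Ddx41+/- samples. High and low samples occurred in both genotypes, with means of 33.1 CPM ± 6.27 (SD, n = 4) and 33.3 CPM ± 7.84 (SD, n = 3). The log2 fold change was 0.0049 (SE 0.17, adjusted p = 0.994), and its 95% interval of -0.38 to 0.39 corresponds to a ratio of 0.769 to 1.31. Dusp7, its close relative in sequence and ERK preference, was the steadiest member at 40.4, 39.1, 43.8 and 38.0 CPM in Ddx41+/+ and 40.4, 42.8 and 36.0 CPM in Ddx41+/- cells. The genotypes overlapped throughout. For Dusp7 the log2 fold change was -0.02 (SE 0.09, adjusted p = 0.957), with an interval of -0.21 to 0.16, or a ratio of 0.865 to 1.12. The data thus leave room for differences of about these sizes in either gene. The ratio of 2.12 for Dusp1 lay outside both intervals, but the interval of Dusp1 itself, 1.08 to 4.14, overlapped both. Whether the genes differ in their change was not tested.

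Dusp8, a phosphatase selective for JNK and p38 and known mainly from heart and brain, was near the limit of detection. The Ddx41+/+ samples had 0, 9, 3 and 6 counts of it, in order of replicate, and the Ddx41+/- samples 17, 34 and 27, from libraries of 32234499 counts or more. These are levels of 0, 0.23, 0.0948 and 0.17 CPM against 0.43, 1.01 and 0.61 CPM. The count of 0 in replicate 1 allows a level of up to 0.0725 CPM (3 counts, counting error only). All Ddx41+/- samples were above all Ddx41+/+ samples, but no Ddx41+/+ sample reached the 0.26 CPM that the filter asks of 3 samples, whereas 3 of 3 Ddx41+/- samples did. The log2 fold change was 2.44 (SE 0.80, 95% interval 0.74 to 4.14, unadjusted p = 0.00782, edgeR adjusted p = 0.293), and DESeq2 gave no adjusted p for so low a gene. The adjusted p lay between 0.245 and 0.667 in the alternatives that gave one. Dusp8 shares 66 exonic bases with Gm32786 on the opposite strand.

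Dusp10 (MKP-5) and Dusp16 (MKP-7), which also prefer JNK and p38, did not separate the genotypes. Dusp10 was at 2.54, 2.82, 2.40 and 2.10 CPM in Ddx41+/+ and 2.13, 2.85 and 3.16 CPM in Ddx41+/- cells. Dusp16 was at 8.75, 8.00, 10.3 and 6.74 CPM in Ddx41+/+ and 7.46, 5.55 and 7.96 CPM in Ddx41+/- cells. The lowest Dusp16 sample was Ddx41+/- replicate 7, and otherwise the samples were intermingled. Dusp10 had a log2 fold change of 0.14 (SE 0.26, 95% interval -0.42 to 0.70, adjusted p = 0.897). That of Dusp16 was -0.27 (SE 0.19, 95% interval -0.66 to 0.13, adjusted p = 0.657). With 1 sample left out in turn, Dusp10 ran from 0.012 (Ddx41+/- replicate 8 left out) to 0.28 (Ddx41+/- replicate 6 left out), and Dusp16 from -0.37 (Ddx41+/- replicate 8) to -0.13 (Ddx41+/- replicate 7).

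The members also differed in how tightly mice of the same genotype agreed. The coefficient of variation of Dusp1 was 47.1% within Ddx41+/+ and 23.9% within Ddx41+/-, while that of the median tested gene was 9.54% and 9.52%. Dusp7, of similar mean level to Dusp1 in Ddx41+/+ cells, varied by 6.24% and 8.67%. The remaining members above 1 CPM lay between these in Ddx41+/+, from 12.2% for Dusp10 to 37.5% for Dusp4. The highest Ddx41+/+ sample of Dusp1 was 2.48 times the lowest, compared with 1.15 times for Dusp7.

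Levels of different genes were compared per kilobase of merged exon (CPM per kb). In Ddx41+/+ cells Dusp2 was the highest at 25.2 CPM per kb ± 3.53 (SD, n = 4), followed by Dusp7 at 12.02 ± 0.75, Dusp6 at 10.6 ± 2.00 and Dusp1 at 9.96 ± 4.69. The samples of Dusp2 lay above all those of Dusp7, but Dusp7, Dusp6 and Dusp1 overlapped in this order. Dusp5 followed at 2.11 ± 0.52, then Dusp16 (1.08), Dusp4 (0.96) and Dusp10 (0.81), which overlapped as neighbours, and last Dusp8 (0.025). In Ddx41+/- cells Dusp1 came first at 21.1 CPM per kb ± 5.03 (SD, n = 3) and Dusp2 next at 18.4 ± 3.88, and these overlapped. Dusp7 (11.8 ± 1.03) and Dusp6 (10.6 ± 2.50) again overlapped each other, and Dusp5 (1.66 ± 0.37), Dusp16 (0.90), Dusp10 (0.89), Dusp4 (0.72) and Dusp8 (0.14) were lower.

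As a share of the 9 summed members per length, Dusp1 made up 12.99%, 12.6%, 13.5% and 22.5% in the Ddx41+/+ samples, in order of replicate, and 25.6%, 33.99% and 34.99% in the Ddx41+/- samples. On this measure Ddx41+/+ replicate 4 lay below every Ddx41+/- sample, but a share also depends on the other members. In that replicate Dusp1 itself was at 16.9 CPM per kb, above the 15.4 of Ddx41+/- replicate 6. The summed level of the members was also highest there. The share of Dusp2 was 40.7%, 42.6%, 37.1% and 40.3% in Ddx41+/+ and 34.2%, 20.5% and 29.3% in Ddx41+/- samples. The ratio of Dusp1 to Dusp2, per length, was 0.319, 0.295, 0.364 and 0.559 in Ddx41+/+ and 0.749, 1.66 and 1.19 in Ddx41+/- samples. The shares and this ratio were formed after the values were seen, so they are given without a test. The summed level of the 9 members was 54.4 to 75.2 CPM per kb in Ddx41+/+ and 59.9 to 70.8 CPM per kb in Ddx41+/-, with overlap. Without Dusp1 the sum was 47.6 to 58.2 CPM per kb in Ddx41+/+ and 44.5 to 46.0 CPM per kb in Ddx41+/-. These ranges did not overlap, but Dusp1 was left out after its values were seen, and they were not tested. Dusp2 was the largest part of that sum in every sample.

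**Figure D3:**
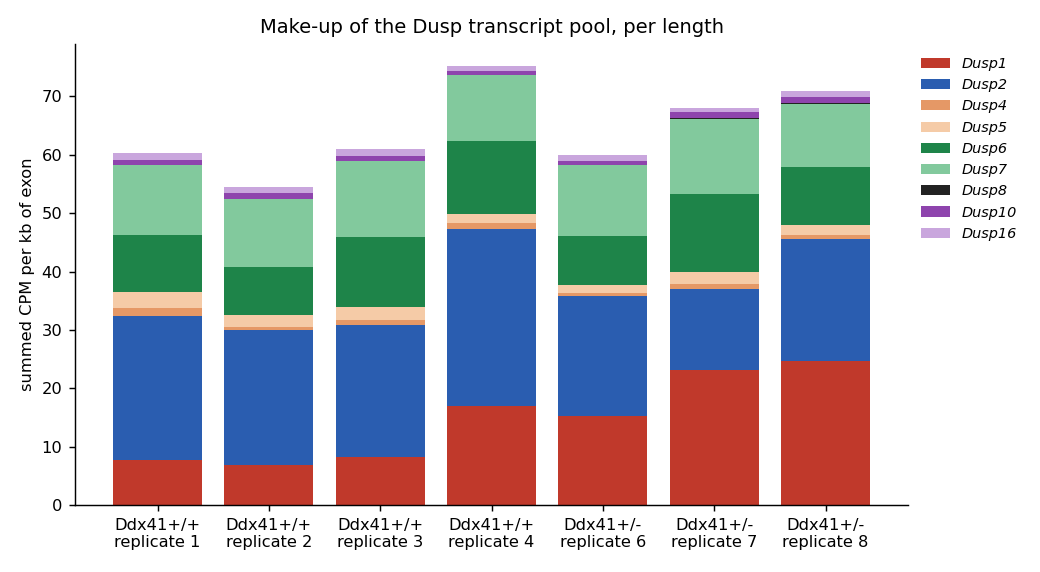
Summed level of the 9 Dusp transcripts in CPM per kb of merged exon, by sample, with each gene's part in its own colour. The Dusp1 part at the base takes 12.6% to 22.5% of the bar in Ddx41+/+ and 25.6% to 34.99% in Ddx41+/-, while the Dusp2 part above it takes 37.1% to 42.6% and 20.5% to 34.2%.

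The genes whose pattern over the 7 samples was nearest to Dusp1, Dusp2, Dusp4, Dusp5 and Dusp6 were found by the root mean square (RMS) difference of log2 CPM, centred on each gene's mean, among 11770 genes of at least 1 CPM. For Dusp1 they were Jun (0.19), Fos (0.25) and Malat1 (0.26), where Dusp1's own RMS about its mean was 0.71. Jun and Fos encode AP-1 subunits, and Malat1 is a nuclear long noncoding RNA. The Ddx41+/+ samples had 83.3, 80.1, 135 and 209 CPM of Jun, in order of replicate, against 178, 315 and 313 CPM in the Ddx41+/- samples. Fos was at 67.6, 59.9, 97.6 and 190.4 CPM in Ddx41+/+ and 158, 342 and 291 CPM in Ddx41+/-. Both placed Ddx41+/+ replicate 4 between Ddx41+/- replicate 6 and replicates 7 and 8, as Dusp1 did. Neither passed the test for genotype, with log2 fold changes of 1.08 (adjusted p = 0.481) for Jun and 1.34 (adjusted p = 0.460) for Fos.

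Dusp2, Dusp4, Dusp5 and Dusp6 had other nearest genes, and those 12 were outside the pathway and early response lists. For Dusp2 they were Hyi (RMS 0.07), Zbtb48 (0.09) and Ciita (0.09), where Dusp2's own RMS was 0.32. Hyi averaged 11.5 CPM in Ddx41+/+ and 8.92 CPM in Ddx41+/-, and Ciita, the transactivator of MHC class II genes, 5.83 and 4.41 CPM. For Dusp4 the nearest were Zfp108 (0.22), Epb4.1l5 (0.22) and Fam171a2 (0.22), close to one another, where Dusp4's own RMS was 0.51. For Dusp5 they were Trpc6 (0.10), Mmrn1 (0.12) and Col4a1 (0.12), and for Dusp6 Ccdc130 (0.09), Rnpc3 (0.09) and Atat1 (0.10), where the own RMS was 0.33 and 0.26. These are descriptions over 7 samples, with no test.

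**Figure D4:**
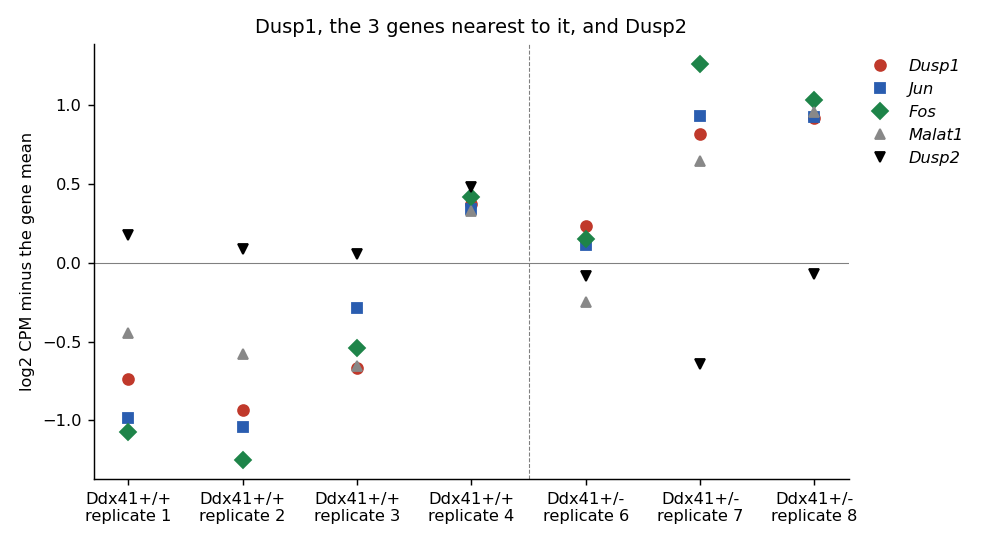
Log2 CPM of Dusp1, its 3 nearest genes and Dusp2, each centred on its own mean, by sample; the dashed line divides the genotypes. Dusp1, Jun, Fos and Malat1 lie below their means in Ddx41+/+ replicates 1 to 3 and above them in replicate 4, while Dusp2 is highest in Ddx41+/+ replicate 4 and lowest in Ddx41+/- replicate 7.

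The rest of the pathway was described with 7 lists. Of the other dual-specificity phosphatases, which include enzymes that do not act on MAP kinases, 10 of 17 were tested and none passed the adjusted test. The smallest p-values belonged to Dusp3 (log2 fold change -0.33, SE 0.13, adjusted p = 0.366), which acts on ERK and JNK, and, in the other direction, Dusp22 (0.16, SE 0.23, adjusted p = 0.863). Of phosphatases of other families that act on MAP kinases, 7 of 8 were tested and none passed, with Ptprr at 0.24 and Ptpn7 at -0.07. At an unadjusted p under 0.05, the first of these lists had 1 gene, Dusp3, and the second had 0, beside 10.6% of all genes tested. The median log2 fold changes were -0.11 and 0.0021, the former -0.17 without Ddx41+/+ replicate 3 and -0.04 without Ddx41+/- replicate 6.

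The kinases that these phosphatases oppose did not pass the test either. None of 12 tested MAP kinases, 7 MAP kinase kinases and 22 MAP kinase kinase kinases had an adjusted p under 0.05. An unadjusted p under 0.05 was found for 2, 0 and 3 of them, beside 10.6% of all genes tested. Their medians were 0.03, -0.01 and 0.04, and without Ddx41+/- replicate 7 they were -0.04, 0.02 and 0.02. Among the kinases, Mapk13 and Mapk11, both of the p38 family, had the smallest p in each direction, at 0.58 (SE 0.25, adjusted p = 0.412) and -0.65 (SE 0.29, adjusted p = 0.429). One step up, Map2k6, which activates p38, was at 0.27 and Map2k2, which activates ERK, at -0.12. At the top of the cascade, Map3k1 was at 0.20 (SE 0.07, adjusted p = 0.314) and Map3k10 at -0.36 (SE 0.15, adjusted p = 0.398).

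Of 15 tested feedback inhibitors and transcriptional targets of ERK, none passed the test. An unadjusted p under 0.05 was found for 2, beside 10.6% of all genes tested, and the median log2 fold change was -0.13. That median was 0.0027 without Ddx41+/+ replicate 1 and -0.03 without Ddx41+/+ replicate 4. Spry2, an inhibitor of receptor signalling to ERK, was at 0.30 (SE 0.13, adjusted p = 0.408). Etv1, an ETS factor induced by ERK, was at -1.71 (SE 0.78, adjusted p = 0.444) at levels of 0.57 and 0.17 CPM. Early response genes are transcribed within minutes of a stimulus without new protein synthesis. Of these, 1 of 28 tested passed, beside 0.217% of all genes, and 6 had an unadjusted p under 0.05, all higher, beside 10.6% of all genes in either direction. The list holds genes that the study marked in these samples, so its direction is not independent evidence. Its median was 0.24, but 0.13 without Ddx41+/+ replicate 2 and 0.37 with quality weights. The gene that passed was Rhob, a small GTPase, which averaged 91.2 CPM ± 10.4 (SD, n = 4) across Ddx41+/+ samples, against 125 CPM ± 8.01 (SD, n = 3) across Ddx41+/- samples. Its log2 fold change was 0.46 (SE 0.08, edgeR adjusted p = 0.0339). In the opposite direction the smallest p was that of Maff, at -0.62 (SE 0.37, adjusted p = 0.587). Of the 28 genes, 24 had a higher mean in Ddx41+/-, beside 48.8% of all genes tested. In 20 of them the highest Ddx41+/+ value was that of replicate 4, the sample in which Dusp1 was also highest, beside 23.6% of all genes tested. The number of genes called in these lists was 0 to 3 when 1 sample was left out: 3 without Ddx41+/+ replicate 4 (Jund, Rhob and Zfp36), 2 without Ddx41+/- replicate 6 (Klf6 and Rhob), and 0 without Ddx41+/+ replicate 2 or 3 or Ddx41+/- replicate 7 or 8.

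**Figure D5:**
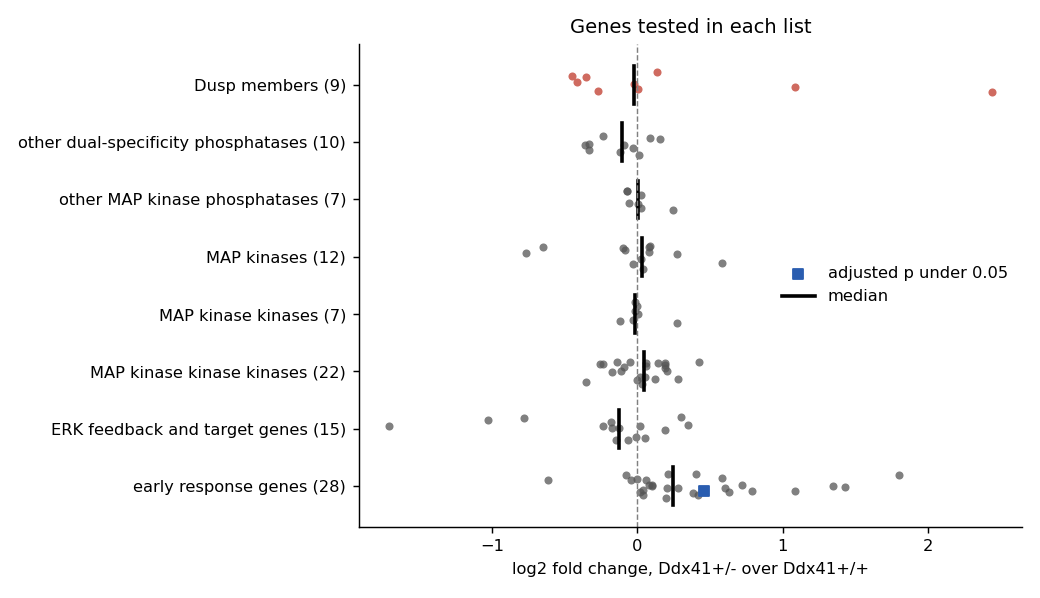
Log2 fold change, Ddx41+/- over Ddx41+/+, of each tested gene in the Dusp set and in 7 related lists, with the number tested in parentheses; black bars are medians and the blue square has an adjusted p under 0.05. The 9 Dusp genes run from -0.45 (Dusp2) to 2.44 (Dusp8) around a median of -0.02, and the early response genes have a median of 0.24 with Rhob as the gene past the threshold.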

How the data were processed

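Bulk LSK RNA from 7 mice was sequenced, and the authors deposited whole-number read counts per gene symbol in 1 table, with no normalization. Per the submitters' processing notes, FastQC 0.11.7, HISAT2 2.0.5, featureCounts 1.5.2 and the mm10 build were used. The gene annotation and strand setting of the counting are not given in the sources used here. The labels name a stranded TruSeq kit and the study's methods an unstranded one, so reads of overlapping antisense genes may not be separable. A Ddx41+/- library numbered 5 was left out by the authors and was not analysed here. No row lacked a gene name, 0 sample columns were unused, and the 21 pairs of samples differed by at least 13.7 in chi-square per gene, so no library was a duplicate.

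Counts were scaled by TMM, filtered with filterByExpr by genotype (13340 genes kept) and fitted with edgeR 4.0.16 (R 4.3.3) by the robust quasi-likelihood test, with Benjamini-Hochberg adjustment over all genes tested. The adjusted p threshold was 0.05, counts per 1000000 (CPM) use TMM-scaled totals, and the analysis was tested on simulated data. Alternatives were median-of-ratios scaling, library totals, no filter, DESeq2 1.42.0, limma 3.58.1 voom with and without sample quality weights, and leaving out each sample. Groups came from the genotype label. Positions and exon lengths came from GENCODE M21 (GRCm38) by symbol, and promoters from RefSeq (GRCm38.p6). The members, the 7 pathway and early response lists and the 7 marker lists (LSK, neutrophil, macrophage, B-lineage, T and NK, erythroid, stroma and endothelium) were chosen with earlier results of these data known. Named genes were the members, Ddx41, any list gene passing the threshold, the gene with the smallest p in each direction per pathway list, and the 3 nearest genes of Dusp1, Dusp2, Dusp4, Dusp5 and Dusp6. Genes otherwise named were chosen after their values were seen. Totals were 32234499 to 43751290 counts, at which Dusp8 had at most 34 counts in a sample. Limits from a count of 0 cover counting error only.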

Additional observations from a re-analysis of the deposited data

Results flagged for a closer look

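Among the 24 values checked (the levels of the 9 members and 15 list scores, in the 4 Ddx41+/+ samples), 1 had a sample far from the rest. Dusp1 was at 56.1 CPM in Ddx41+/+ replicate 4, with the next highest sample at 27.3 CPM. The gap took up 0.861 of the range of the group, above Dixon's 95% critical value for a group of 4. The members were checked in CPM and the list scores in log2 CPM. The size of such a gap depends on the scale, and the Dusp1 flag holds for CPM only. Chance alone would give about 1.2 such values among 24. The 3 Ddx41+/- samples are too few for this check.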

How the results depend on the processing

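The 29 genes called across the whole table became 24 with median-of-ratios scaling, 15 with library totals, 91 without the filter, 164 with DESeq2 (each of these last 2 including all 29), 10 with limma-voom, and 37 with its quality weights (26 shared), and were 7 without Ddx41+/+ replicate 2 at the lowest and 41 at the highest, without replicate 1. Ddx41 stayed called throughout. The members called went from 0 to 1, Dusp1, with quality weights and without Ddx41+/+ replicate 4, a leave-one-out range of 0 to 1. The genes called in the pathway and early response lists went from 1 to 0 with library totals and with limma-voom and to 2 with DESeq2 (Klf6 and Rhob), and ranged from 0 to 3 when a sample was left out. The log2 fold change of Dusp6 changed sign, at -0.011 with library totals and -0.0035 with limma-voom, and was -0.194 at the lowest, without Ddx41+/- replicate 7, and 0.143 at the highest, without replicate 6, being negative also without Ddx41+/+ replicates 1 and 2. That of Dusp7 was -0.0796 at the lowest, without Ddx41+/- replicate 7, 0.0441 at the highest, without replicate 8, and 0.019 without Ddx41+/+ replicate 3. The other 7 members kept their direction in all 13 alternatives, and Dusp1 alone crossed the threshold in any. The cause of these shifts was not tested. The leave-one-out fits have fewer samples. No paired analysis was possible because no replicate number occurs in both genotypes. Depth limits Dusp8 most, whose levels rest on 0 to 34 counts.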

Other observations

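Of the remaining marker lists, the summed macrophage genes were at 171 to 189 CPM in Ddx41+/+ and 165 to 230.4 CPM in Ddx41+/- samples. The T and NK genes were at 224 to 276 and 256 to 284 CPM, the erythroid genes at 24.7 to 48.7 and 35.4 to 58.0 CPM, and the stromal and endothelial genes at 147 to 169 and 162 to 177 CPM. The LSK markers were at 1579 to 1756 and 1474 to 1621 CPM. Of all marker genes, Mmp9, a neutrophil granule protease, passed the test across all genes (log2 fold change 1.57, edgeR adjusted p = 0.00677). Ly6g, Ighm, Igkc and Trbc2 were not analysed here.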
